A study of Mus musculus with 2 samples.

Results

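Canonical Wnt signaling was examined through 10 genes grouped as target and feedback genes, Axin2, Lef1, Tcf7, Tcf7l1, Nkd1, Sp5, Lgr5, Notum, Dkk1 and Znrf3. They were looked up by symbol among the 24532 genes of the deposited mm10 table. All 10 were present, each with reads in both libraries. The 2 RNA-seq libraries came from mouse embryonic stem cells (ESCs), 1 from parental wild-type E14 cells and 1 from E14-Sox2TA/WT cells. The latter were E14 cells edited by CRISPR/Cas9 cutting with a single-stranded donor, with T258A on 1 Sox2 allele and a wild-type second allele. Edited cells were expanded from individual cells, and how many clones the sequenced RNA came from is not given in the sources used here. Threonine 258 of Sox2 can carry the sugar O-GlcNAc and alanine cannot, and the comparison asks which genes respond to loss of that site. Per the methods of the study, E14 cells were cultured with serum and leukemia inhibitory factor (LIF). Edited cells were expanded with 2i, the Mek inhibitor PD0325901 and the Gsk3 inhibitor CHIR99021, and selected clones were kept in serum, LIF and 2i. Experiments used cells 1 to 10 passages after 2i was withdrawn, and the passage of the sequenced cells is not given. Because a Gsk3 inhibitor itself turns on the pathway examined here, genotype, clonal origin and past exposure to CHIR99021 cannot be told apart as sources of any difference below.

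Wnt ligands bind a Frizzled receptor together with Lrp5 or Lrp6 and stop the destruction complex, built on Axin and containing Gsk3, from marking β-catenin for degradation. β-Catenin then joins the DNA-binding Tcf/Lef factors in the nucleus and turns on target genes, several of which encode inhibitors that damp the signal again. In ESCs Tcf7l1 acts mainly as a repressor of pluripotency genes, and β-catenin relieves that repression. A higher Tcf7l1 level is therefore not read below as more target transcription.

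Each genotype had 1 library, so the spread between replicates is unknown for every value and no test was made. Totals were 60263536 reads in E14 and 44609228 in E14-Sox2TA/WT cells. Levels are given as TPM, transcript abundances that are scaled per length and per library and can be compared between genes. Ratios are E14-Sox2TA/WT over E14, and the 95% intervals beside them cover the counting of reads alone. In bulk RNA, a change in the number of cells that express a gene and a change in its RNA per cell cannot be told apart. Sox2 was at 372.5 TPM in E14 and 274.2 TPM in E14-Sox2TA/WT cells, and the edited base is not visible in a gene table. The ESC marker genes were abundant in both libraries, with Pou5f1 at 1725 and 1759 TPM and none of the 10 markers at 0. Of the 10, 4 were higher in E14-Sox2TA/WT cells and 6 were lower, with Nanog (526.9 and 251.3 TPM) more than 2-fold lower. Their summed level was 11421 TPM in E14 and 8564 TPM in E14-Sox2TA/WT cells, most of the difference in Dppa5a (6877 and 4429 TPM).

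The start regions of the members that differed most are shown first, because Tcf/Lef factors recognize short motifs in their targets. The RefSeq promoter table (GRCm38.p6) held 11 windows for 7 of the 10 members, each from 250 bases before to 50 bases after a start site, and held none for Lgr5, Notum and Znrf3. The Tcf/Lef core CTTTGA was searched on both strands. It was present in 16.0% of all 32851 promoter windows, and the longer form CTTTGAT, which contains it, in 3.73%. Among the members, 3 of the 11 windows held the core, a window each of Sp5, Dkk1 and Lef1. The Sox core CATTGT, present in 12.6% of all windows, was found in 1 window, of Lef1. A match is a description of letters and not evidence of binding. In the windows below, capitals mark matches to these motifs or their reverse complements, and each runs 5′ to 3′ on the strand of the gene.

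Sp5 (chr2:70474673-70474972, plus strand): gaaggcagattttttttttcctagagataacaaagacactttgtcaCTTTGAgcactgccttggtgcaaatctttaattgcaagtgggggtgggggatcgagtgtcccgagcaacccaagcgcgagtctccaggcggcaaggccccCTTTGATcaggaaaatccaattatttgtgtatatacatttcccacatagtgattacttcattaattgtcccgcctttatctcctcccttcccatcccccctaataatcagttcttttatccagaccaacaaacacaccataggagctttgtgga
Lef1, the most downstream of its 4 windows (chr3:131156044-131156343, plus strand): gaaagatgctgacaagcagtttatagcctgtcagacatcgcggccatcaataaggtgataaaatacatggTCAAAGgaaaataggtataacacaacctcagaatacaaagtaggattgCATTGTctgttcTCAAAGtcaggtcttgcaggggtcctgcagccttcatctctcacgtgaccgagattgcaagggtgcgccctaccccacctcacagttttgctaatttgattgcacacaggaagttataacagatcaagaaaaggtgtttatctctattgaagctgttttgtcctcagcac
Dkk1 (chr19:30549447-30549746, minus strand): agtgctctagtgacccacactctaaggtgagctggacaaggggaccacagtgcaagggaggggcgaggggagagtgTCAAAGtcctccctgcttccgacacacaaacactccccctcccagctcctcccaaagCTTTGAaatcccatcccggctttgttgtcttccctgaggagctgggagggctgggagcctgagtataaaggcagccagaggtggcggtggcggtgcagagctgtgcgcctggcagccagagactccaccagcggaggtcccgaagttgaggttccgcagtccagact
Tcf7l1 (chr6:72788996-72789295, minus strand), without a match: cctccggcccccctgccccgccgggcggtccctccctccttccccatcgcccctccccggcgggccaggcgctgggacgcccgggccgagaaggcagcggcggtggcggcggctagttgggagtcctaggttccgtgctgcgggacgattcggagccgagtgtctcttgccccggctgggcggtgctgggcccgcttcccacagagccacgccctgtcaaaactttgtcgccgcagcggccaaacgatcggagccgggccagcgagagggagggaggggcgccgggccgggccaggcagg

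Sp5, which had the second largest increase of the members, held the core at positions -204 and -104 from its start, and the match at -104 was the longer form. Dkk1, the member with the largest decrease, held the core at -174 and -117, so matches were found in members that differed in opposite directions. The start site of that Dkk1 window lies 169 bases from the start of the Dkk1 transcript in the deposited table. The Lef1 window with the motifs starts transcription 43497 bases from the nearest start of the 3 Lef1 transcripts in the deposited table, and the other 3 Lef1 windows had no match. Neither Tcf7l1 nor Axin2, Tcf7 and Nkd1 had a match in these windows.

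Of the 3 members that encode Tcf/Lef factors, Lef1 and Tcf7l1 were more than 2-fold higher in E14-Sox2TA/WT cells and Tcf7 was within 2-fold. Lef1, a factor that mainly activates targets with β-catenin, was close to absent in E14 at 0.288 TPM (33 reads) and stood at 5.26 TPM (401 reads) in E14-Sox2TA/WT cells. The Lef1 level was 18.3-fold higher, with a log2 ratio of 4.19 (3.68 to 4.75). Of the 13729 genes that reached 1 TPM in either library, 41 (0.299%) had a higher ratio than Lef1. Lef1 itself reached 1 TPM only in E14-Sox2TA/WT cells, so this place describes Lef1 and is not support for a shift. Tcf7l1 went from 7.12 TPM (640 reads) to 24.98 TPM (1508 reads), a log2 ratio of 1.81 (1.68 to 1.95). Tcf7, which encodes Tcf1, was the most abundant member in both libraries, at 46.8 TPM (3964 reads) and 50.7 TPM (2886 reads). The Tcf7 log2 ratio was 0.12 (0.05 to 0.19), and its sign changed to -0.027 with FPKM, so no direction is given for this gene.

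The make-up of the Tcf/Lef family therefore differed between the libraries. Summed over Tcf7, Tcf7l1, Lef1 and the non-member Tcf7l2, the family was at 55.5 TPM in E14 and 84.2 TPM in E14-Sox2TA/WT cells. Tcf7 made up 84.4% of that sum in E14 and 60.3% in E14-Sox2TA/WT cells, Tcf7l1 made up 12.8% and 29.7%, and Lef1 made up 0.519% and 6.25%. Within a library the ratio of 2 TPM values does not depend on how the libraries are scaled. Tcf7 was 6.57 times as high as Tcf7l1 in E14 (6.04 to 7.15) and 2.03 times as high in E14-Sox2TA/WT cells (1.91 to 2.16), and these counting intervals do not overlap. Tcf7l2 itself was at 1.27 and 3.21 TPM.

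**Figure D1:**
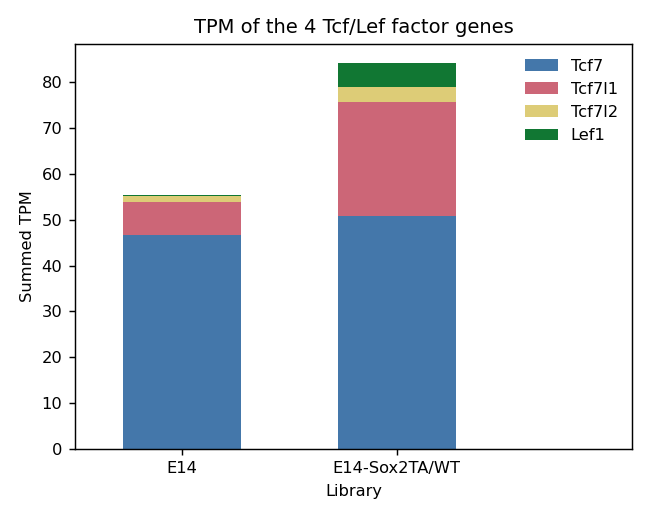
Stacked TPM of the 4 Tcf/Lef factor genes in each library (bars start at 0, 1 library per genotype). The Tcf7 segment is 46.8 TPM in E14 and 50.7 TPM in E14-Sox2TA/WT cells, whereas the Tcf7l1 segment goes from 7.12 to 24.98 TPM and Lef1 from 0.288 to 5.26 TPM.

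Sp5 encodes a zinc finger factor induced by Wnt that represses other Sp targets. Sp5 was at 0.944 TPM (63 reads) in E14 and 7.20 TPM (319 reads) in E14-Sox2TA/WT cells. The Sp5 log2 ratio was 2.93 (2.54 to 3.35), and 112 of the 13729 genes (0.816%) had a higher one. Sp5 entered that set of genes only through E14-Sox2TA/WT cells, so this place is description alone. Of the 50-base words of its transcript, 2.15% also occur in Sp9, a relative with 28 reads in E14 and 0 in E14-Sox2TA/WT cells. Words shared with other genes were also found for Lgr5 (1.31%, with 223 genes), Dkk1 (1.18%, with 93 genes) and Znrf3 (0.196%, with 275 genes). No other member had any.

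The genes for feedback inhibitors fell into a higher and a lower set. Axin2, a scaffold of the destruction complex and the most widely used readout of the pathway, was at 7.69 TPM (1032 reads) in E14 and 12.5 TPM (1122 reads) in E14-Sox2TA/WT cells, a log2 ratio of 0.70 (0.58 to 0.82). Znrf3, a ubiquitin ligase that removes Frizzled receptors from the cell surface, was at 4.94 TPM (1106 reads) and 8.55 TPM (1278 reads), a log2 ratio of 0.79 (0.67 to 0.91). Notum, a secreted enzyme that strips the lipid from Wnt ligands, was at 3.02 TPM (192 reads) and 5.40 TPM (231 reads), a log2 ratio of 0.84 (0.56 to 1.12). All of these ratios were short of 2-fold, and the Notum interval reached past it.

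Because their ratios were alike, these 3 inhibitor genes stood in similar proportion to each other in both libraries. The values below restate those ratios within each library and are not a further result. Axin2 was 1.56 times as high as Znrf3 in E14 (1.43 to 1.69) and 1.46 times as high in E14-Sox2TA/WT cells (1.35 to 1.58). Axin2 was 2.55 times as high as Notum in E14 (2.18 to 2.99) and 2.31 times as high in E14-Sox2TA/WT cells (2.003 to 2.67). The counting intervals of each pair overlap.

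Nkd1 and Dkk1 went the other way. Nkd1, which binds Dishevelled and limits the signal inside the cell, was at 3.93 TPM (534 reads) in E14 and 2.30 TPM (210 reads) in E14-Sox2TA/WT cells, a log2 ratio of -0.77 (-1.01 to -0.54). Dkk1, a secreted antagonist of the coreceptor Lrp6, was at 2.18 TPM (154 reads) and 0.466 TPM (23 reads). The Dkk1 log2 ratio was -2.23 (-2.93 to -1.59), and 313 of the 13729 genes (2.28%) had a lower one. Dkk1 entered that set of genes only through E14, so this place is description alone. The opposite directions can be restated as proportions within each library. Notum was 1.38 times as high as Dkk1 in E14 (1.11 to 1.72) and 11.6 times as high in E14-Sox2TA/WT cells (7.54 to 18.6). Axin2 was 1.96 times as high as Nkd1 in E14 (1.76 to 2.18) and 5.43 times as high in E14-Sox2TA/WT cells (4.68 to 6.32).

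Lgr5, a receptor for R-spondins that marks Wnt-driven adult stem cells, was the lowest member at 0.0404 TPM (6 reads) and 0.141 TPM (14 reads). The Lgr5 log2 ratio of 1.80 had an interval from 0.33 to 3.47, so whether it differs by more than 2-fold was not detectable at this depth. The Lgr5 ratio was 0.78 with a pseudocount of 0.1 and 0.13 with a pseudocount of 1.

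**Figure D2:**
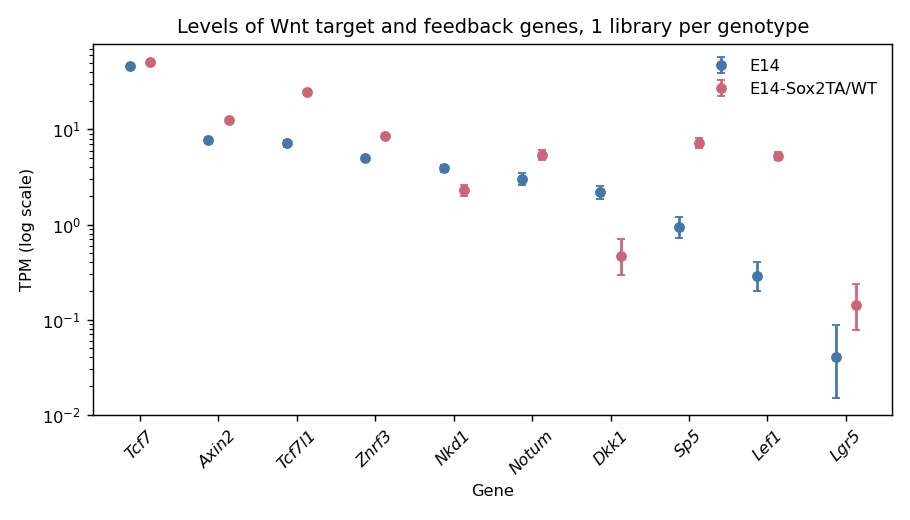
TPM of each member on a log scale in E14 and E14-Sox2TA/WT cells, ordered by the E14 level, with 95% counting intervals as bars. Tcf7 is highest and Lgr5 lowest in both libraries, Lef1 and Sp5 lie under 1 TPM in E14 alone, and Dkk1 lies under 1 TPM in E14-Sox2TA/WT cells alone.

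The order of levels differed between the libraries. In E14 it ran from Tcf7 through Axin2, Tcf7l1, Znrf3, Nkd1, Notum, Dkk1, Sp5 and Lef1 to Lgr5, and the neighbours Axin2 (7.23 to 8.17 TPM) and Tcf7l1 (6.58 to 7.69 TPM) were not separated by counting error. In E14-Sox2TA/WT cells it ran from Tcf7 through Tcf7l1, Axin2, Znrf3, Sp5, Notum, Lef1, Nkd1 and Dkk1 to Lgr5, and Notum (4.73 to 6.15 TPM) and Lef1 (4.76 to 5.80 TPM) were not separated. Sp5 moved from rank 8 to 5 and Lef1 from rank 9 to 7, whereas Nkd1 moved from rank 5 to 8.

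**Figure D3:**
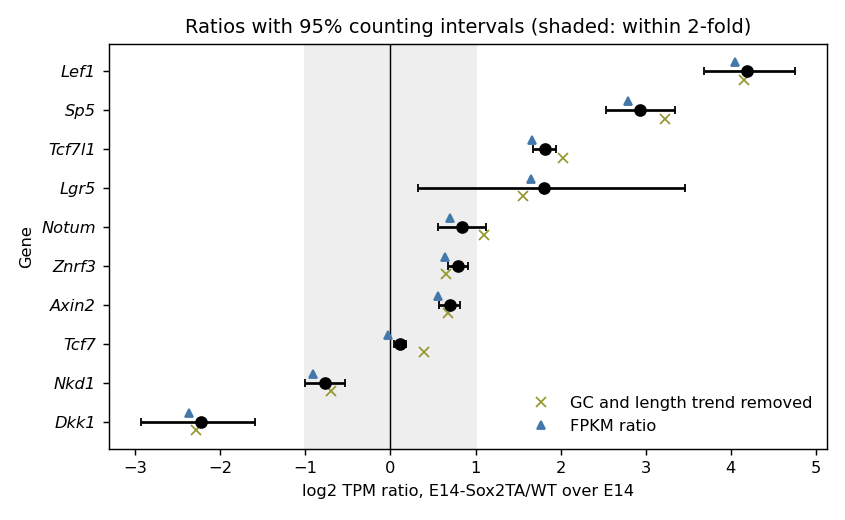
Log2 TPM ratio of each member with its 95% counting interval (black), beside the FPKM ratio (blue triangles) and the ratio corrected for the GC content and length of transcripts (crosses), with the range within 2-fold shaded. Lef1, Sp5, Tcf7l1 and Dkk1 have intervals wholly past 2-fold, and Tcf7 is the one gene whose sign differs between the measures.

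By the filter and threshold of the study, 10 TPM in either library and a ratio beyond 2-fold, 3 members could be called (Tcf7, Tcf7l1 and Axin2). Of these 1, Tcf7l1, was called higher and 0 were called lower. Across all 9094 genes past that filter, 379 (4.17%) were called higher and 370 (4.07%) lower. These totals differ from those the study reported for these cells, so the calls here are not those of the study. At a TPM of at least 1, 9 members remained, of which 3 (Lef1, Sp5 and Tcf7l1) were higher and 1 (Dkk1) was lower, beside 6.45% and 9.95% of 13729 genes. Tcf7l1 and Axin2 passed the 10 TPM filter only through E14-Sox2TA/WT cells. Lef1 and Sp5 passed the second filter only through E14-Sox2TA/WT cells and Dkk1 only through E14. The counts at both filters are thus an account of the members and not support for a shift. All 10 members had a counting interval that excluded no change, as did 80.5% of the 13729 genes. The median log2((TPM + 0.1) ratio) over all 10 members was 0.78, beside 0.04 over the 13269 genes whose mean TPM reached 1.

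**Figure D4:**
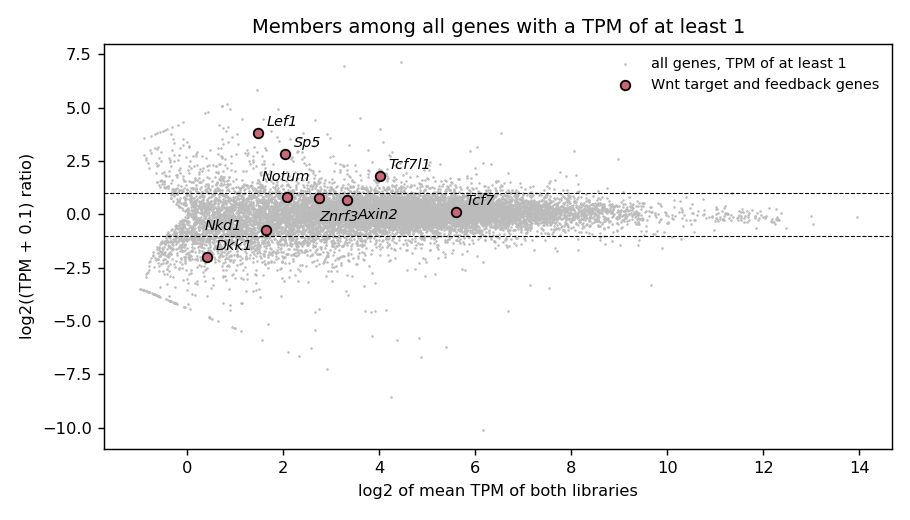
Log2((TPM + 0.1) ratio) against the log2 of the mean TPM for all 13729 genes that reached 1 TPM in either library (grey), with the 9 members past that filter marked and 2-fold drawn as dashed lines. Lef1, Sp5 and Tcf7l1 lie above the upper line and Dkk1 below the lower line, and the other 5 lie between the lines.

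The members are spread over 7 chromosomes, with Axin2, Tcf7, Notum and Znrf3 on chromosome 11. Genes within 1 Mb of the members that differed most had medians nearer 0. The 6 genes whose mean TPM reached 1 within 1 Mb of Lef1 (chromosome 3, 131110297 to 131224357, GRCm38) had a median log2 ratio of -0.09 on the scale with a pseudocount of 0.1, and 0 of them were past 2-fold. The 19 such genes around Sp5 (chromosome 2, 70474923 to 70477726) had a median of 0.31 and 0 past 2-fold, and the 22 around Tcf7l1 (chromosome 6, 72626371 to 72789045) had -0.10 with 1 past 2-fold. Nkd1 (chromosome 8, 88521342 to 88594887) was lower although the 724 expressed genes of its chromosome had a median of 0.26, and around Dkk1 (chromosome 19, 30545876 to 30549496) the 9 genes had a median of 0.32. Exons of Axin2, Lef1, Tcf7l1 and Notum overlap genes of the opposite strand in GENCODE M21, and the sources used here do not state whether strand was counted. Of these, Gm15401 opposite Tcf7l1 was in the table and had 0 reads in both libraries.

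The rest of the pathway was described through 98 further genes in 9 groups. Of the 44 that reached a TPM of 10, 8 were more than 2-fold higher and 3 were more than 2-fold lower. Across all 9094 genes past that filter, the shares were 4.17% and 4.07%. Fzd2, Amer1, T and Cdx2 passed the filter only through E14-Sox2TA/WT cells and Cdx1 only through E14. The counts are thus an account of the group and not support for a shift. The median log2((TPM + 0.1) ratio) of the 76 genes whose mean TPM reached 1 was 0.18, or 0.041 with FPKM. The group of other Wnt targets overlaps genes already known to differ in these libraries, so its count is not independent evidence.

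Among ligand and secretion genes, Wls, the carrier that brings Wnt ligands to the cell surface, was higher (11.2 and 28.5 TPM, log2 ratio 1.35), and Porcn, which attaches their lipid, was at 26.5 and 14.7 TPM (-0.85). No Wnt ligand gene reached 10 TPM. Wnt5a, a ligand mostly linked to β-catenin-independent signaling, was at 0.11 TPM (16 reads) and 3.51 TPM (317 reads), a log2 ratio of 4.96 (4.24 to 5.79). Among 6 receptor genes at 10 TPM, 1 was called, Fzd2, with a log2 ratio of 1.02 (0.87 to 1.16) that counting error does not separate from 2-fold. In the R-spondin group Lgr4, an R-spondin receptor related to Lgr5, was higher, at 26.6 TPM (4239 reads) and 69.1 TPM (7382 reads), a log2 ratio of 1.38. Under 10 TPM the group was divided, with the ligand gene Rspo3 at 0.119 and 1.92 TPM (log2 ratio 4.01), the ligand gene Rspo4 at 3.48 and 1.15 TPM (-1.60) and the receptor gene Lgr6 at 2.19 and 0.985 TPM (-1.16). Over the 5 genes of the group that reached 1 TPM, 2 were more than 2-fold higher and 2 more than 2-fold lower. Over all 13729 genes past that filter the shares were 6.45% and 9.95%. Rspo3 passed it only through E14-Sox2TA/WT cells and Lgr6 only through E14, so the count is description alone. The median log2((TPM + 0.1) ratio) of the 5 genes was -0.11.

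Of the secreted inhibitors and their coreceptors, 0 of 4 genes at 10 TPM were called, and under that level Dkk3 was at 8.37 and 2.37 TPM (log2 ratio -1.82), Sfrp5 at 2.70 and 1.07 TPM (-1.34) and the Dkk coreceptor Kremen2 at 4.16 and 1.75 TPM (-1.25). Dkk2, Dkk4 and Cer1 had 0 reads in both libraries. Of 9 destruction complex genes at 10 TPM, 1 was called, the scaffold Amer1 (4.98 and 12.25 TPM, log2 ratio 1.30). Of 5 cytoplasmic transducer genes, 0 were called, and Ctnnb1, which encodes β-catenin, was at 416.4 and 470.9 TPM (log2 ratio 0.18). Its transcript level does not report the protein, which is regulated by degradation.

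Of 6 nuclear factor genes at 10 TPM, the corepressor gene Tle4 was higher (20.9 and 68.5 TPM, log2 ratio 1.72) and Cby1, whose product competes for β-catenin, was lower (123.4 and 57.4 TPM, -1.10). Of 6 other Wnt target genes, T (0.95 and 14.03 TPM, log2 ratio 3.88), Cdx2 (0.47 and 12.2 TPM, 4.69) and Myc (27.1 and 101.9 TPM, 1.91) were higher, and Cdx1 was lower (30.2 and 6.66 TPM, -2.18). The caudal homeobox genes Cdx1 and Cdx2 thus went in opposite directions. Of the 5 genes known to be repressed by Tcf7l1 in ESCs, 1 was called, Nanog, which was lower (log2 ratio -1.07), and Esrrb was at 289.6 and 310.6 TPM (0.10).

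**Figure D5:**
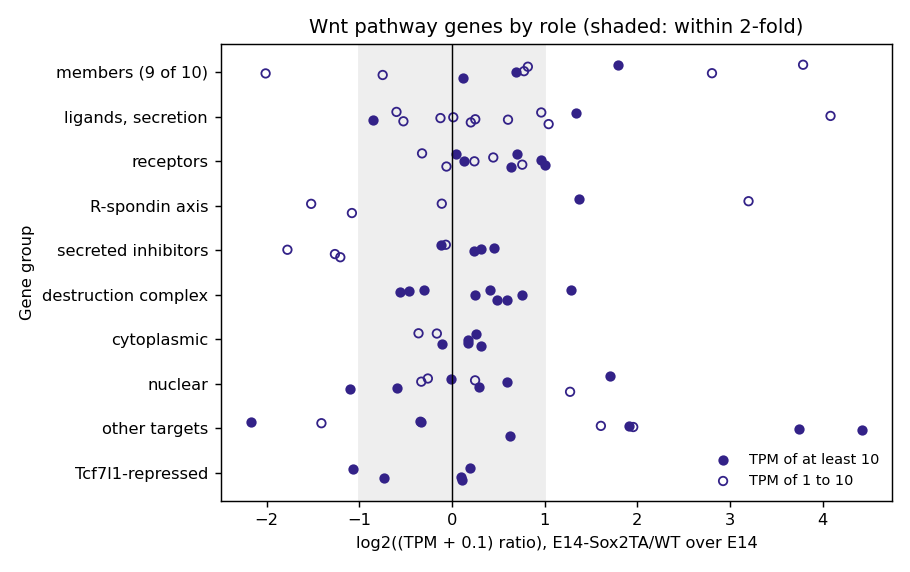
Log2((TPM + 0.1) ratio) of the members and of the 9 groups of other pathway genes, for genes that reached 1 TPM in either library (Lgr5 lies under that filter), filled where a TPM of 10 was reached, with the range within 2-fold shaded. Wnt5a among the ligands and Cdx2 among the other targets lie far above the shaded range, and the 7 cytoplasmic transducers all lie within it.

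Markers of other cell types differed alongside the members. Of the 6 primitive streak markers, 4 (T, Eomes, Mixl1 and Fgf8) were more than 2-fold higher at a TPM of at least 1. Over all 13729 genes past that filter the share was 6.45%, and T and Mixl1 passed it only through E14-Sox2TA/WT cells. Mesp1 was at 0.630 and 0.439 TPM, and Gsc had 16 reads in E14 and 0 in E14-Sox2TA/WT cells. The summed level of the list was 7.64 TPM in E14 and 34.4 TPM in E14-Sox2TA/WT cells. Of the 4 neural markers 3 (Sox1, Pax6 and Nes) were more than 2-fold higher (88.2 and 114.9 TPM summed), Pax6 from under 1 TPM in E14. The other, Tubb3, was lower (77.3 and 65.8 TPM). All 5 primitive endoderm markers were more than 2-fold lower, from 37.4 to 9.70 TPM summed, and none was at 0. The share over all genes was 9.95%, and Sox7 and Sox17 reached 1 TPM only in E14. Of the 5 trophoblast markers Cdx2 was higher and Tfap2c was lower (54.3 and 31.9 TPM summed), with Elf5 at 0 reads in both. Of the 7 fibroblast markers (43.1 and 16.6 TPM summed, most of it Thy1), Dcn, Lum and Postn had 0 reads in both libraries, Thy1 was lower and Col3a1 was higher. The part of these cell types in the levels of the Wnt genes was not tested.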

How the data were processed

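Polyadenylated RNA of 2 libraries, 1 per genotype, was sequenced. The table deposited by the authors gives raw read counts, which are not normalized. FPKM and TPM values, scaled for gene length and library size, were deposited beside them. The submitters' processing notes name Trimmomatic, HISAT2 2.1.0 and StringTie 2.1.3b. The counting tool and the use of strand are not given in the sources used here. Members and gene lists were chosen with earlier results of these data known, and lists were written from general knowledge.

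Ratios of E14-Sox2TA/WT to E14 TPM used no pseudocount. A gene was called when it reached 10 TPM in either library and its ratio passed 2-fold, and 1 TPM served as a second filter. Medians used a pseudocount of 0.1. Intervals are exact Clopper-Pearson 95% intervals from the read counts, placed on the TPM scale, and exact Poisson intervals for single levels. They cover counting error only and not the spread between replicates. Because PCR copies are not independent molecules, the intervals may be too narrow even for counting error. A floor of 3 reads corresponded to 0.0498 CPM (reads scaled to library size) in E14 and 0.0673 in E14-Sox2TA/WT cells. The calculation was tested on simulated Poisson counts, which hold no PCR copies. The genes named were all members, Sox2, Ctnnb1 and, per pathway group, the called genes or the most extreme ones. Wnt3, Wnt3a, Wnt4, Wnt5a, Porcn, Rspo3, Rspo4, Lgr6, Esrrb, Tcf7l2, Dkk3, Sfrp5, Kremen2, Sp9 and the marker genes named were picked after their values were seen. Alternatives were other filters, pseudocounts and fold thresholds, TMM scaling (edgeR 4.0.16), median-of-ratios scaling (DESeq2 1.42.0), centring on the median, FPKM, and subtraction of running medians over GC content and length (20 bins each). Gene positions and promoter windows came from RefSeq (GRCm38.p6), and transcripts from GENCODE M21, both of the build of the table.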

Additional observations from a re-analysis of the deposited data

How the results depend on the processing

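With 1 library per genotype, no alternative leaves out a replicate. No paired analysis was possible because each genotype had 1 library. Under the 7 alternatives to the scale of the ratio, every member except Tcf7 had the same sign as in the main comparison, and Tcf7 was at -0.027 with FPKM, which moves the median of all genes by -0.14. The log2 ratio of Lgr5, 1.80 without a pseudocount, ran from 0.13 to 1.78. The log2 ratio ran from 2.28 to 4.16 for Lef1, 2.08 to 3.23 for Sp5, 1.67 to 2.03 for Tcf7l1 and -2.37 to -1.12 for Dkk1, and the value nearest 0 came with a pseudocount of 1 for Lgr5, Lef1, Sp5 and Dkk1. The median of the 10 members ran from 0.59 to 0.81. Medians over other filters were computed too (0.78 for members at a mean TPM of at least 1, 0.11 for all pathway genes with reads), a choice made after seeing the data. The median of the pathway genes was 0.041 with FPKM.

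Filters and thresholds moved the counts by construction. Of the members, 3 were higher and 1 was lower at a TPM of at least 1, 3 were higher at a TPM of at least 5, and 2 were higher at 1.5-fold. Of the 77 pathway genes that reached a TPM of 1, 15 were higher and 9 lower, beside 6.45% and 9.95% of all 13729 genes. At a TPM of at least 5, 5 were lower, and 4 were higher at a TPM of at least 20 and 4 at a mean TPM of at least 10. At 1.5-fold 15 were higher and 6 lower, and at 3-fold 4 were higher and 1 lower. Shares over all genes are not given for these other settings, so their counts are description alone. Low read counts limit Lgr5, Dkk1 and Lef1 most.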
